A study of Mus musculus with 13 samples.

Results

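The genes described here encode the initiation and elongation factors of cytosolic translation in mouse blastocysts. Members were taken by symbol from the table of 31528 genes: names starting with Eif1 to Eif6, Eef1 or Eef2, without the Eif4ebp, Eif4enif, Eif2ak and Eef1akmt names and without pseudogenes. The rule was met by 60 genes, after 21 of 81 names with these beginnings were left out, and 58 of the 60 were among the 21808 genes with enough counts to be tested. A name does not make a factor, and the rule also took Eif2c5, Eif4a3l1, Eif4a3l2 and the modifying enzymes Eef1aknmt, Eef2k and Eef2kmt. Of these, Eef2k and Eef2kmt were placed in the eEF2 group, and the others were kept apart from the factor groups. Counts and medians over all members include those of them that were tested.

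Translation of an mRNA starts when the eIF4F complex (the cap-binding protein eIF4E, the scaffold eIF4G and the helicase eIF4A, helped by eIF4B and eIF4H) prepares the capped end, while eIF2, loaded with GTP and the initiator tRNA, joins the small ribosomal subunit together with eIF1, eIF1A, eIF5 and the many-subunit eIF3. After the start codon is found, eIF2 leaves with GDP and is recharged by its exchange factor eIF2B, and eIF5B joins the ribosomal subunits. Elongation is carried by eEF1A, which delivers the aminoacyl tRNAs and is recharged by the eEF1B subunits, by eEF2, which moves the ribosome by a codon, and by eIF5A, which relieves stalled peptide bonds. Embryonic diapause is a pause of the blastocyst before implantation in which growth and protein synthesis are low, and the growth kinase complex mTORC1, which controls cap-dependent initiation and the translation of the mRNAs for many of these factors, is known as one of its regulators.

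The blastocysts were of the mixed B6D2F1 background (C57BL/6 and DBA2J) and were sequenced whole, in 13 libraries that make 6 groups. The reference group was wild type, from mothers on a normal diet, at embryonic day 4.5 (E4.5, n = 2), and every other group was of day 5.5. These were wild-type blastocysts from ovariectomised mothers (OVX, n = 2), from a starvation treatment (starvation, n = 2), from culture in KSOM medium lacking the protein and carbohydrate components (depleted KSOM, n = 2), and from culture in KSOM with lowered arginine, leucine, isoleucine, lysine, glucose and lactate (reduced KSOM, n = 3), and blastocysts from ovariectomised mothers labelled as knockouts of Nprl2 and Tsc2, made with guide RNAs against both genes (targeted OVX, n = 2). Nprl2 and Tsc2 encode restraints on mTORC1. A day of age separates E4.5 from each other group, so age and treatment cannot be told apart in any comparison with E4.5, and no group in complete KSOM is among the labels, so culture and medium cannot be told apart either. Nothing in the labels says whether replicates were separate litters or cultures, and p-values here measure only the spread between these libraries.

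Depth was high in all libraries, with 40678386 to 72125687 counts in each. All listed markers of trophectoderm, of inner cell mass and epiblast and of primitive endoderm passed 1 CPM in some library of every group. The 4 inner cell mass and epiblast markers (Pou5f1, Nanog, Sox2, Klf4) summed to 227.6 and 258.5 CPM (counts scaled to a common library size) in E4.5 and to between 21.59 and 164.5 CPM in the day 5.5 libraries. Markers of skeletal muscle and neutrophils, cell types a blastocyst does not hold, stood high in OVX replicate 1 and the 3 reduced KSOM libraries: 15 muscle genes summed to 1512 CPM in the former and 1135 to 1580 CPM in the latter, against 173.8 to 517.4 CPM elsewhere. All 15 passed 1 CPM in some library of OVX and of reduced KSOM, and between 3 and 7 of them in the other groups, where Acta1 was at 0. The 10 neutrophil genes summed to 642 CPM and to 1372 to 1904 CPM, against 132.6 CPM in OVX replicate 2 and at most 32.9 CPM elsewhere. Transcripts of both targeted genes were still present in the libraries labelled as knockouts. In targeted OVX, Tsc2 stood at 14.7 and 8.26 CPM and Nprl2 at 13.9 and 28.6 CPM. The OVX libraries had 23.3 and 14.07 CPM of Tsc2 and 38.0 and 36.5 CPM of Nprl2, and the other libraries 12.6 to 26.8 CPM and 11.9 to 42.1 CPM. An mRNA level does not measure whether the guides cut.

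Per length of transcript, a few factor mRNAs dominated. In E4.5 the authors' FPKM values (fragments scaled by transcript length and library size, a level comparable between genes) were highest for Eef1a1, which encodes the tRNA-carrying factor eEF1A, at 1258 and 1318 FPKM. Eif2s2, the β subunit of eIF2, followed with 759 and 805 FPKM, Eif5a with 579 and 562 FPKM, Eef2 with 428 and 413 FPKM, and Eef1g, a structural subunit of eEF1B, with 310.04 and 350 FPKM. The subunits of eIF2 were far from equal at the mRNA level: the mean of Eif2s2 in E4.5 was 782 ± 32.9 FPKM (SD, n = 2), while Eif2s1, the regulated α subunit, had 45.4 ± 1.29 FPKM and the X-linked γ subunit gene Eif2s3x had 45.8 ± 12.1 FPKM. The eIF3 subunits spanned 20.02 (Eif3j2) to 252.8 FPKM (Eif3k) on the same E4.5 means. Genes with near-identical copies elsewhere in the genome, such as Eif3j1 and Eif3j2 or Eif1a and Eif1ax, can have their reads split between copies, so their levels are less certain.

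**Figure D1:**
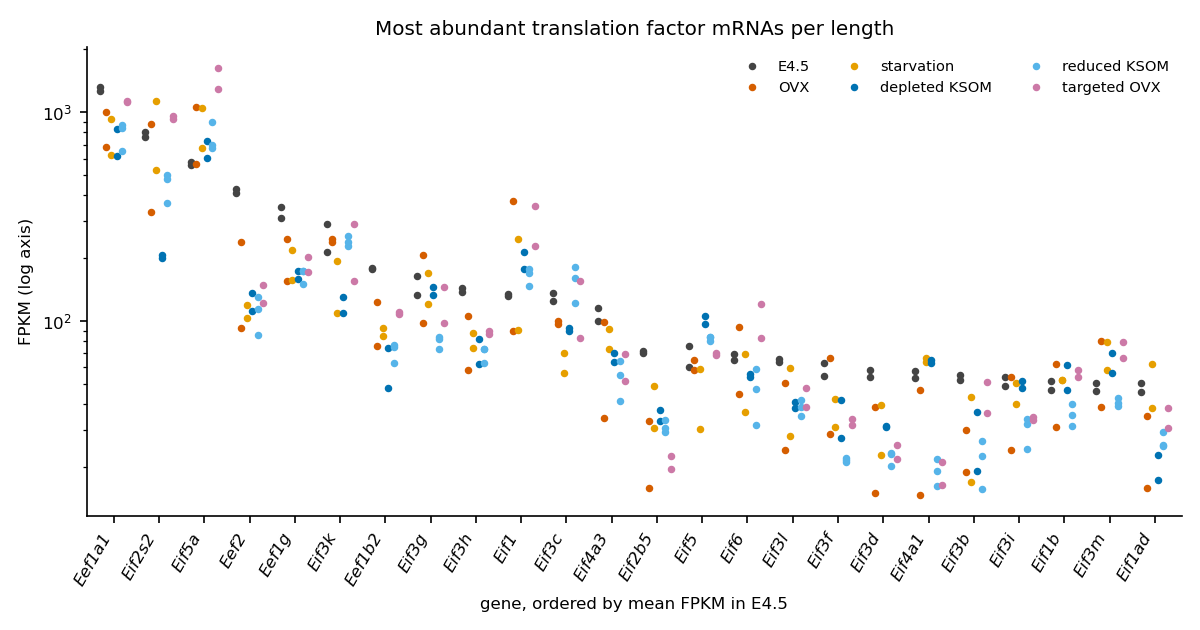
The 24 translation factor genes with the highest mean FPKM in E4.5, in that order along the x axis, with 1 point per library coloured by group and FPKM on a log axis. Eef2 separates the 2 E4.5 libraries (428 and 413 FPKM) from all 11 others (85.9 to 240.2 FPKM), while Eif5a is highest in targeted OVX (1622 and 1288 FPKM).

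Few members passed the test (edgeR quasi-likelihood, Benjamini-Hochberg adjusted p under 0.05 over all tested genes; a gene that passed is said to be called). The comparison of OVX with E4.5 called 0 of 58 members, where 2.04% of all tested genes were called (1.56% higher and 0.481% lower). Starvation against E4.5 called 1 member, Eef2, as lower, beside 2.21% of all genes (1.68% higher and 0.532% lower). Depleted KSOM against E4.5 called 3 (Eif4g1, Eef1b2 and Eef2, all lower), beside 5.51% (3.29% higher and 2.21% lower). The members are abundant: 47 of the 58 reached 5 on the scale of mean log2 CPM, and abundant genes are called more often. Among the 3342 genes that abundant, the shares called were 7.99%, 7.69% and 18.1% in these 3 comparisons.

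Reduced KSOM against E4.5 called 2 members (Eif4h and Eif2s3x, both lower), beside 1.13% of all genes (0.77% higher and 0.362% lower) and 4.64% of the abundant ones. Targeted OVX against E4.5 called 6, of which Eif2s1, Eif5a and Eif3m were higher and Eif2s3x, Eif4g1 and Eif4h lower, beside 2.66% (1.68% higher and 0.986% lower) and 10.1%. With library totals as the scale, 6 members were called in that comparison too, but 0 of them higher and 6 lower. Targeted OVX against OVX called 0 members, where 0.0367% of all genes (0.00459% higher and 0.0321% lower) and 0.0898% of abundant genes were called. Reduced KSOM against depleted KSOM called 2 (Eif4a1 and Eif4h, both lower in reduced KSOM), beside 5.79% (2.99% higher and 2.8% lower) and 19.5%. The count in targeted OVX against E4.5 was near the share among abundant genes, and the other counts were below it. In the 2 comparisons without a call, 12 members (OVX against E4.5) and 6 members (targeted OVX against OVX) had an unadjusted p under 0.05, DESeq2 called 10 and 3, and limma on log2(FPKM + 1) called 7 and 0. The first 5 comparisons share the E4.5 libraries, and so are not independent of each other.

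A smaller share of members than of all tested genes had a large fold change, in a comparison not matched for abundance. A log2 fold change beyond 1 in either direction was reached by 13 of the 58 members in OVX against E4.5 (22.4%, against 50.1% of all tested genes), by 12 in starvation (20.7% against 51.0%), by 15 in depleted KSOM (25.9% against 55.5%), by 14 in reduced KSOM (24.1% against 46.1%) and by 20 in targeted OVX (34.5% against 51.6%). All tested genes include many of low counts, whose fold changes scatter more. The members' log2 fold changes against E4.5 had medians of 0.05 (OVX), −0.12 (starvation), −0.23 (depleted KSOM), −0.07 (reduced KSOM) and 0.23 (targeted OVX), where all genes had 0, 0, −0.09, 0.15 and −0.16. Scaling by library totals instead of trimmed means moved the medians of all genes to −0.53, −0.17, −0.41, −0.5 and −0.92 and those of the members to −0.5, −0.39, −0.55, −0.76 and −0.51. So on both count scales the members' median lay above that of all genes in OVX and targeted OVX and below it in the other 3, while on log2(FPKM + 1) it lay below also in OVX (−0.46 against −0.14) and targeted OVX (−0.37 against −0.2). Fewer cells of a type and less RNA per cell cannot be told apart in such libraries of whole embryos.

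**Figure D2:**
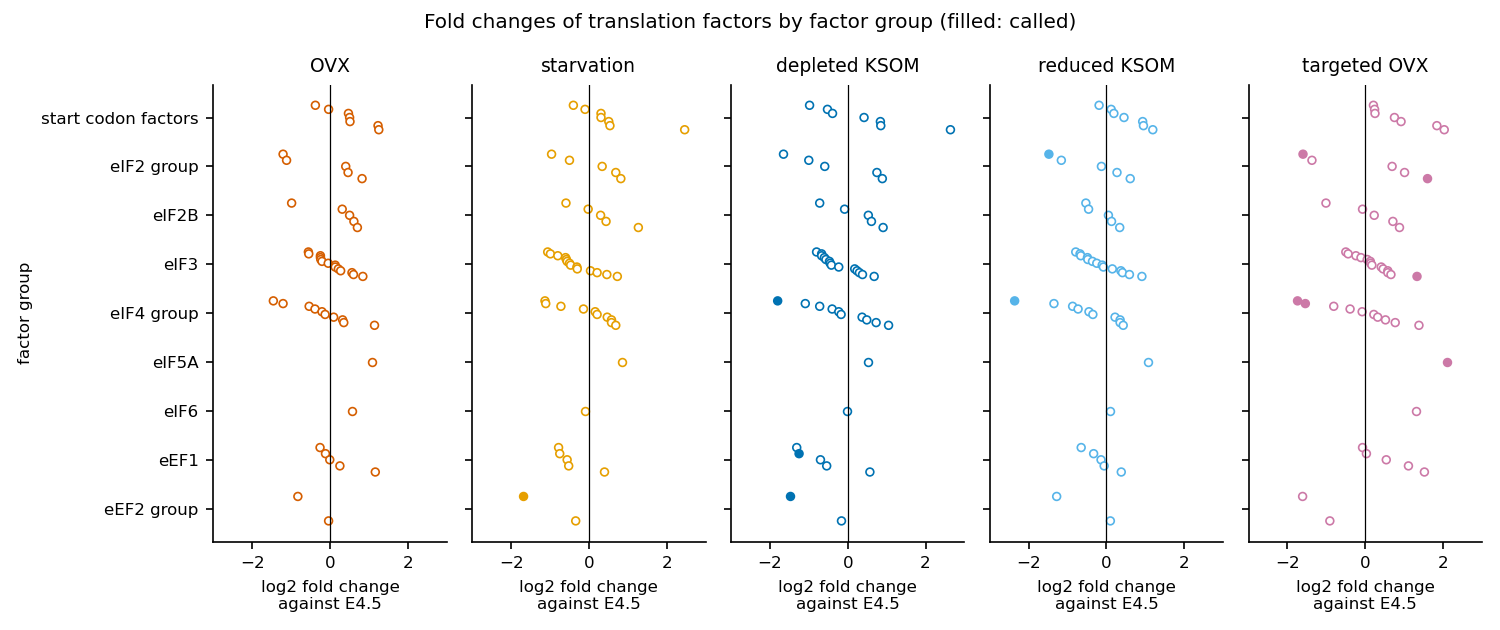
Log2 fold changes against E4.5 (x axis) of members whose mean log2 CPM was 3 or more, by factor group (y axis) and in 1 panel per day 5.5 group; each point is a gene and filled points were called. Most points lie within 1 of 0, and the called genes lie in the eIF2, eIF3, eIF4, eIF5A, eEF1 and eEF2 groups.

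A pattern across all 11 day 5.5 libraries was more common than the calls. In CPM on the trimmed-mean scale, 9 of the 58 tested members were below both E4.5 libraries in all 11 (Eif2d, Eif2b5, Eif3d, Eif4b, Eif4g1, Eif4h, Eef2, Eif4a3l1 and Eif4a3l2). That is 15.5% of members, beside 5.98% of all tested genes. Among the abundant members it was 7 of 47 (14.9%), beside 4.82% of genes that abundant. Scaled by library totals, 19 members were below E4.5 in all 11 libraries, the same 9 among them. The share of all genes was not counted on that scale. Another 5 members were above both E4.5 libraries in all 11 (Eif2a, Eif2s1, Eif2b3, Eif3m and Eif5a), or 8.62% beside 3.45% of all genes and, for the abundant ones, 10.6% beside 13.5%. On library totals no member was above in all 11. The E4.5 libraries had the highest trimmed-mean factors (1.344 and 1.414, against 0.671 to 1.22 in the others). Library totals therefore raise E4.5 most, so the lower set had to hold there and the upper set could only shrink. The second scale is thus no check of either set. The 2 libraries of E4.5 are the reference in each of these counts.

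**Figure D3:**
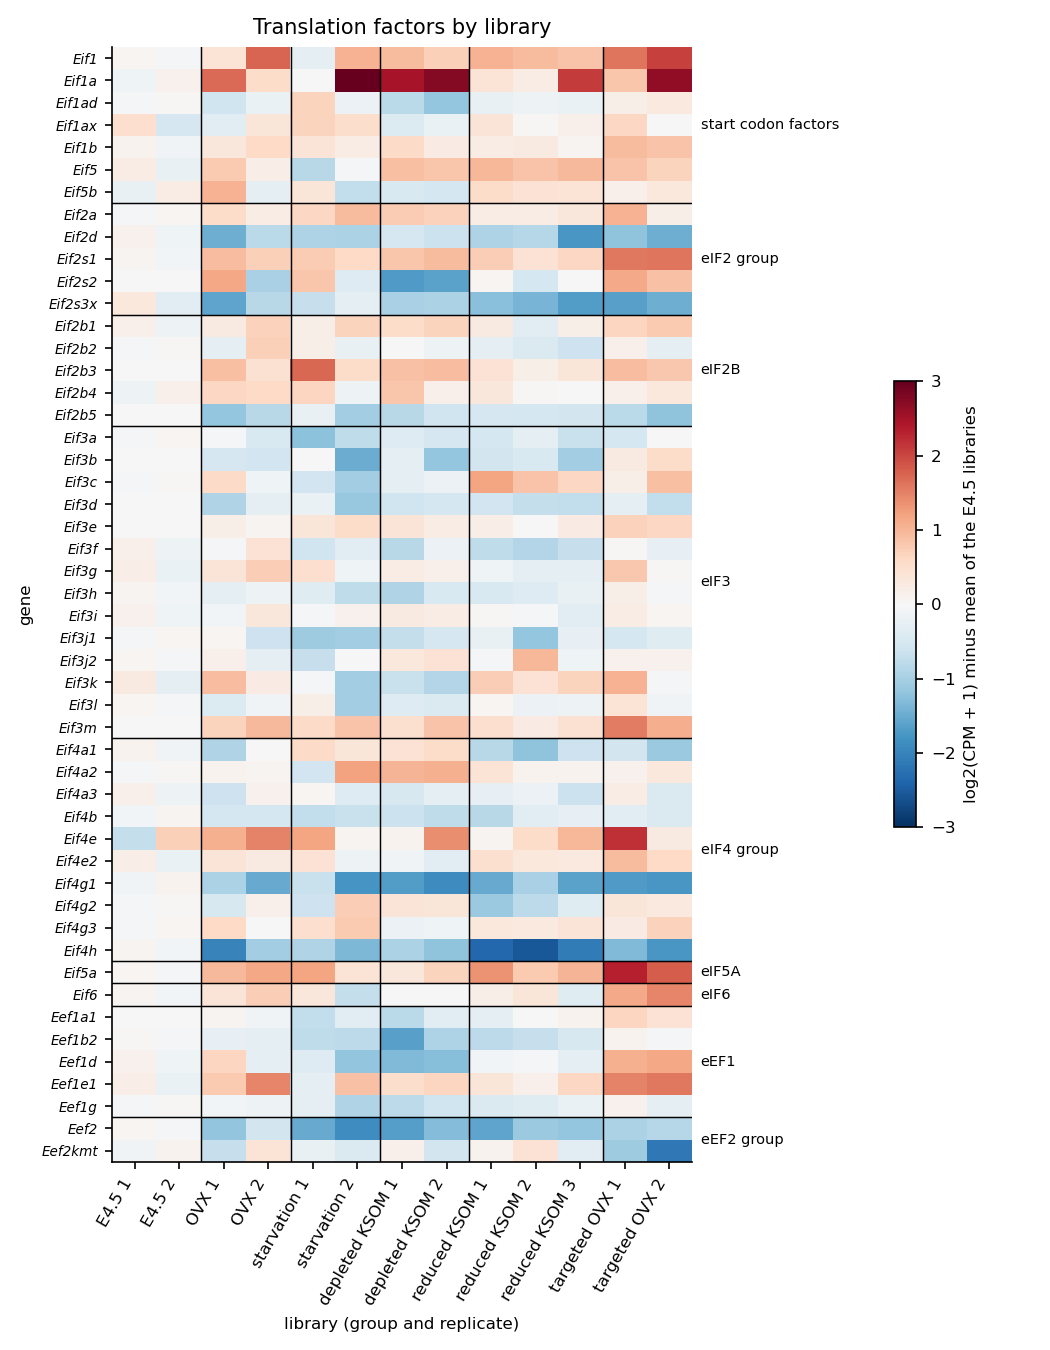
Log2(CPM + 1) of the 50 more abundant members in each library, minus the mean of the 2 E4.5 libraries (colour, limited to 3 in either direction), with genes in rows by factor group and libraries in columns. Eif4h, Eif4g1 and Eef2 are below E4.5 in every day 5.5 column, and Eif5a and Eif2s1 above it.

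The eIF2 subunits went different ways. Eif2s1 (ENSMUSG00000021116, GRCm38 chromosome 12, 78861819 to 78887010) encodes the α subunit, the one that stress kinases phosphorylate. It had 192 and 174 CPM in E4.5, 346 and 299 in OVX, 311 and 279 in starvation, 328 and 353 in depleted KSOM, 308, 248 and 283 in reduced KSOM and 552 and 560 CPM in targeted OVX. All day 5.5 libraries were above E4.5, and the 2 targeted OVX libraries were the highest of all, with no overlap with any other group. Eif2s1 was 3.04-fold higher in targeted OVX than in E4.5 (log2 fold change 1.60 ± 0.27 SE, adjusted p = 0.011). The difference between targeted OVX and OVX, 0.79 ± 0.27, was not called (adjusted p = 0.31). On library totals the change against E4.5 was 0.85 and missed the threshold (adjusted p = 0.11). It also missed the threshold in a fit of the 2 groups alone, without either E4.5 library and without targeted OVX replicate 2.

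Eif2s3x (ENSMUSG00000035150, chromosome X, 94188707 to 94212709), the X-linked gene for the GTP-binding γ subunit, went down where Eif2s1 went up. Its values were 174 and 112 CPM in E4.5, 46.2 and 77.6 in OVX, 85.4 and 116 in starvation, 71.2 and 71.5 in depleted KSOM, 57.7, 52.7 and 43.2 in reduced KSOM and 44.6 and 49.7 CPM in targeted OVX. Of the day 5.5 libraries, starvation replicate 2 alone reached the range of E4.5. Eif2s3x fell 3.03-fold in targeted OVX (−1.60 ± 0.35, adjusted p = 0.034) and 2.79-fold in reduced KSOM (−1.48 ± 0.31, adjusted p = 0.044). In OVX it was at −1.21 ± 0.35 (adjusted p = 0.10), in depleted KSOM at −1.0 ± 0.35 (adjusted p = 0.12) and in starvation at −0.50 ± 0.35 (adjusted p = 0.45). Both calls were lost when any 1 library of the groups compared was left out (adjusted p from 0.081 to 0.24 in targeted OVX and from 0.099 to 0.39 in reduced KSOM). The embryos' sex, which sets the number of X chromosomes, is not in the labels.

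Eif2s2 (chromosome 2, 154871410 to 154892935), the β subunit that binds eIF5 and eIF2B, was among the least steady members. It had 4294 and 4300 CPM in E4.5, 9646 and 2185 in OVX, 7634 and 3262 in starvation, 1322 and 1420 in depleted KSOM, 4463, 2980 and 4322 in reduced KSOM and 9393 and 7925 CPM in targeted OVX. The 2 depleted KSOM libraries were the lowest of the 13, and the replicates of OVX and of starvation lay far apart, on both sides of E4.5. The change in depleted KSOM, −1.65 ± 0.59, was not called (adjusted p = 0.13), nor was 1.01 ± 0.58 in targeted OVX (adjusted p = 0.38). Eif2d, which can bring initiator tRNA to the ribosome without eIF2, was lower in all day 5.5 libraries (18.03 to 43.5 CPM) than in E4.5 (68.3 and 57.0 CPM) but was not called in any comparison (adjusted p = 0.076 in targeted OVX). Eif2a, an eIF2 alternative unrelated to its subunits, ran from 25.7 and 28.1 CPM in E4.5 to between 30.5 and 56.3 CPM at day 5.5.

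Eif2s3y, the Y-linked copy of Eif2s3x, was bound to single libraries. It had 0.0797 and 43.3 CPM in E4.5, 29.6 and 4.55 in OVX, 0 and 0.126 in starvation, 46.1 and 47.8 in depleted KSOM, 44.0, 46.0 and 60.9 in reduced KSOM and 0 and 40.1 CPM in targeted OVX. The groups E4.5 and targeted OVX each held a library below 0.1 CPM and another of 40.1 CPM or more, and the starvation libraries were both near 0. Over the 13 libraries the genes most like it were Ddx3y, Uty and Kdm5d, all Y-linked (Pearson r of 0.99, 0.969 and 0.959 on log2 CPM, n = 13, points that share a library), followed by Zfy1 and Katnal1 (0.907 and 0.894). No fold change between groups is given for it, since the sex of the embryos in each library is not in the labels.

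Their starts are alike too. The sequences run from 5 bases before to 25 bases from the RefSeq start (GRCm38.p6), 5′ to 3′ on the gene's strand, with the longest run of C and T in capitals, and they show that both copies of the γ subunit gene hold a long pyrimidine run shortly before the same gagcaagatg.
Eif2s3x (chrX:94212627-94212656, minus strand): TTTTCCTTTTCTCTCCgagcaagatggctg
Eif2s3y (chrY:1010590-1010619, plus strand): cagccaCTTCCTTCTTTCgtgagcaagatg

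**Figure D4:**
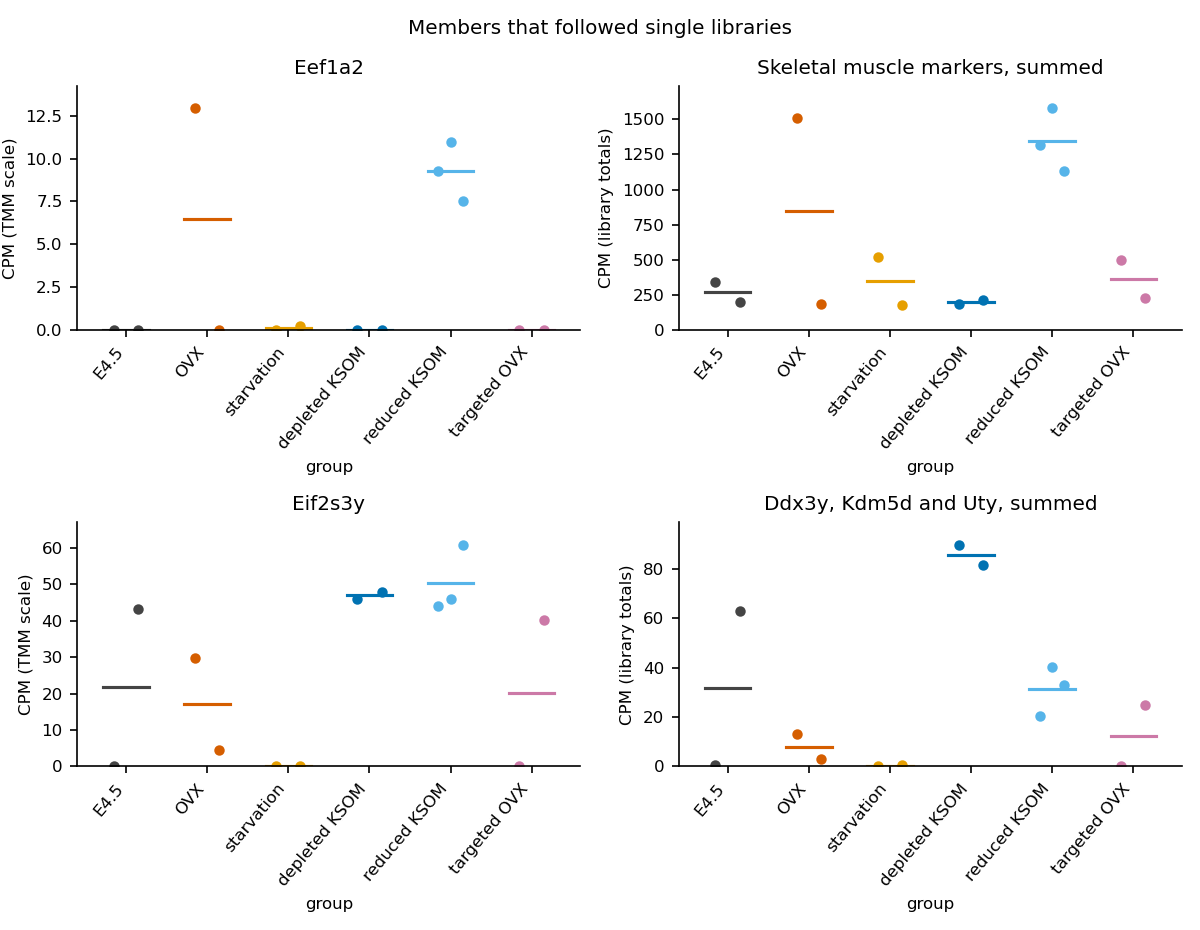
CPM of Eif2s3y beside the sum of Ddx3y, Kdm5d and Uty, and of Eef1a2 beside the sum of 15 skeletal muscle markers, with 1 point per library and a bar at the group mean. Eif2s3y is near 0 in the libraries where the Y-linked sum is near 0, and Eef1a2 is at 7.54 CPM or more in OVX replicate 1 and the 3 reduced KSOM libraries, where the muscle sum is highest, and at most 0.241 CPM in the others.

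The exchange factor eIF2B has 5 subunit genes, and none was called in any comparison, where 0.0367% to 5.79% of all tested genes were. Eif2b5 encodes the catalytic ε subunit. It stood at 152 and 148 CPM in E4.5 and at 64.0 to 128 CPM in the day 5.5 libraries, all of them below E4.5, with log2 fold changes of −0.99 ± 0.32 in OVX (adjusted p = 0.14) and −1.01 ± 0.32 in targeted OVX (adjusted p = 0.12). Eif2b3, the γ subunit that forms the catalytic part with ε, lay the other way: 59.0 and 61.0 CPM in E4.5 against 68.4 to 202 CPM at day 5.5, the highest in starvation replicate 1. Its change in starvation was 1.27 ± 0.37 (adjusted p = 0.091). Of the regulatory subunits, Eif2b1 had 90.0 and 72.2 CPM in E4.5 and was above both in 10 of the 11 day 5.5 libraries (91.2 to 140 CPM), all but reduced KSOM replicate 2 at 63.9 CPM. Its largest change was 0.71 in targeted OVX (adjusted p = 0.27), and on library totals 5 of the 11 were above E4.5. Eif2b4 was above both E4.5 libraries in 8 of 11, and Eif2b2 was above them in 3 and below them in 7.

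A group of 7 members was put together by name around the factors that find the start codon (Eif1, Eif1a, Eif1ax, Eif1b, Eif1ad, Eif5 and Eif5b). Of these, 0 were called in any comparison, where 0.0367% to 5.79% of all tested genes were. In targeted OVX against E4.5 all 7 log2 fold changes were positive, with a median of 0.75 beside −0.16 for all genes. On library totals 4 of 7 were, with a median of 0 beside −0.92 for all genes. The median of the 7 thus lay above that of all genes on both scales. Eif1, the gatekeeper of start codon choice, had 238 and 219 CPM in E4.5, 304 and 766 in OVX, 191 and 473 in starvation, 440 and 376 in depleted KSOM, 469.7, 445 and 414 in reduced KSOM and 693 and 944 CPM in targeted OVX. Starvation replicate 1 was the only day 5.5 library below E4.5. The change in targeted OVX, 1.84 ± 0.47, came near the threshold (adjusted p = 0.059). Eif1a, one of the genes for eIF1A, had the widest range of the abundant members, from 38.9 CPM in E4.5 replicate 1 to 428 CPM in starvation replicate 2, with 42.0 CPM in starvation replicate 1. With replicates so far apart its log2 fold changes of 2.46 ± 0.95 in starvation and 2.64 ± 0.95 in depleted KSOM were not called (adjusted p = 0.21 and 0.14).

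Eif5, which triggers GTP hydrolysis by eIF2, had 437 and 324 CPM in E4.5, 701 and 671 in depleted KSOM and 754, 682 and 737 in reduced KSOM, above E4.5 in both culture groups. It was not called in either (0.85 ± 0.34, adjusted p = 0.18, and 0.93 ± 0.32, adjusted p = 0.19). Eif5b, which joins the subunits, had 268 and 368 CPM in E4.5, 228 and 216 in depleted KSOM and 461, 425 and 417 CPM in reduced KSOM. The 2 culture groups did not overlap, and their difference was 0.97 ± 0.41 (adjusted p = 0.18). Eif1b stayed between 41.6 and 88.3 CPM over all libraries, and Eif1ad had its lowest levels, 62.3 and 48.9 CPM, in depleted KSOM, against 107 and 112 CPM in E4.5 (−0.98, adjusted p = 0.10).

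Few genes of the eIF3 complex were called. Of its 14 members, 0 were called in OVX, starvation, depleted KSOM or reduced KSOM, and 1 in targeted OVX. The shares of all tested genes called were 2.04%, 2.21%, 5.51%, 1.13% and 2.66% in that order. Counts this small in 14 genes therefore say little about the complex. Medians of the 14 log2 fold changes against E4.5 were 0.04, −0.48, −0.43, −0.18 and 0.15, in the order OVX, starvation, depleted KSOM, reduced KSOM and targeted OVX, beside the all-gene medians of 0, 0, −0.09, 0.15 and −0.16. Signs were negative for 10 of 14 in starvation and 9 of 14 in each KSOM group. On library totals the medians were −0.6, −0.73, −0.75, −0.86 and −0.61, beside −0.53, −0.17, −0.41, −0.5 and −0.92 for all genes. The signs in OVX and targeted OVX thus depend on the scale. On both scales the eIF3 median lay below that of all genes in starvation and both KSOM groups, and above it in targeted OVX. The steadiest member was Eif3i, from 122 to 195 CPM over the 13 libraries, and Eif3e ran from 182 to 297 CPM. The ranges of other subunit genes were 194 to 420.0 CPM for Eif3g, 98.2 to 208 CPM for Eif3h, 74.7 to 187 CPM for Eif3f and 93.1 to 253 CPM for Eif3l.

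Eif3m (ENSMUSG00000027170, chromosome 2, 104999656 to 105017080), a subunit of the complex's outer ring, was the member called. It had 101 and 104 CPM in E4.5, 164 and 203 in OVX, 152 and 187 in starvation, 143 and 185 in depleted KSOM, 146, 122 and 141 in reduced KSOM and 296 and 219 CPM in targeted OVX. All 11 day 5.5 libraries were above E4.5, and those of targeted OVX were above the rest. The rise in targeted OVX was 2.51-fold (1.33 ± 0.30, adjusted p = 0.035). It shrank to 0.56 on library totals (adjusted p = 0.35) and to 0.60 with offsets for transcript length and GC content (adjusted p = 0.25). The call was also lost without any 1 of the 4 libraries, on log2(FPKM + 1), in a fit of the 2 groups alone and with replicate number as a block. Eif3m lies within 17425 bases that overlap Ccdc73 on the other strand, and since the kit does not mark strand, reads of the 2 genes cannot be told apart; Ccdc73 itself had 4.06 to 27.1 CPM.

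Other eIF3 members stood apart in single groups. Eif3c, a core subunit, had 366 and 380 CPM in E4.5, 306 and 328 in depleted KSOM and 844, 673 and 577 CPM in reduced KSOM. The 3 reduced KSOM libraries were above all others but targeted OVX replicate 2, which had 692 CPM, and the difference between the 2 KSOM groups was 1.14 ± 0.33 (adjusted p = 0.065). Eif3k, a small peripheral subunit, had 343 and 298 CPM in depleted KSOM against 912, 739 and 866 CPM in reduced KSOM (1.39 ± 0.41, adjusted p = 0.067). Eif3a, the scaffold of the complex, had 326 and 351 CPM in E4.5 and 143 and 199 CPM in starvation (−0.99 ± 0.31, adjusted p = 0.12), the 2 lowest of the 13. None of these 3 was called. Eif3d, which can itself bind the cap of some mRNAs, was below E4.5 (225 and 229 CPM) in all 11 day 5.5 libraries (103 to 197 CPM). Eif3j1, the loosely attached subunit, had 206 and 222 CPM in E4.5 and 102 and 104 CPM in starvation (−1.06, adjusted p = 0.15).

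The largest falls among called members were in the factors that work at the cap. Eif4g1 (ENSMUSG00000045983, chromosome 16, 20668313 to 20692884) encodes the main scaffold of eIF4F. It had 169 and 199 CPM in E4.5, 94.8 and 63.7 in OVX, 116 and 52.9 in starvation, 56.3 and 49.1 in depleted KSOM, 63.6, 93.2 and 59.7 in reduced KSOM and 55.8 and 54.4 CPM in targeted OVX. Every day 5.5 library was below both E4.5 libraries. Eif4g1 fell 3.49-fold in depleted KSOM (−1.80 ± 0.40, adjusted p = 0.021) and 3.34-fold in targeted OVX (−1.74 ± 0.40, adjusted p = 0.039). The values were −1.35 ± 0.35 in reduced KSOM (adjusted p = 0.089), −1.21 ± 0.39 in OVX (adjusted p = 0.14) and −1.13 ± 0.39 in starvation (adjusted p = 0.16). Without any 1 library of the pair compared, adjusted p rose to between 0.062 and 0.15 in depleted KSOM and between 0.091 and 0.19 in targeted OVX, where offsets for length and GC also ended the call (−1.47, adjusted p = 0.052).

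Eif4h (ENSMUSG00000040731, chromosome 5, 134619721 to 134639490), a stimulator of the helicase eIF4A, fell furthest. Its levels were 224 and 200.2 CPM in E4.5, 52.3 and 102 in OVX, 114 and 82.7 in starvation, 109 and 90.5 in depleted KSOM, 40.5, 35.2 and 48.4 in reduced KSOM and 83.9 and 62.2 CPM in targeted OVX. All day 5.5 libraries were below E4.5, and the 3 reduced KSOM libraries were the lowest of the 13. Eif4h was 5.13-fold lower in reduced KSOM than in E4.5 (−2.36 ± 0.33, adjusted p = 0.011), 2.90-fold lower in targeted OVX (−1.54 ± 0.36, adjusted p = 0.045) and 2.41-fold lower in reduced than in depleted KSOM (−1.27 ± 0.32, adjusted p = 0.040). In OVX it had the smallest adjusted p of all members, at 0.061 (−1.46 ± 0.36), with −1.11 ± 0.36 in starvation (adjusted p = 0.13) and −1.09 ± 0.36 in depleted KSOM (adjusted p = 0.10).

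Muscle and neutrophil markers were high in the same libraries in which Eif4h was lowest, the 3 of reduced KSOM, and OVX replicate 1 with its high muscle sum had 52.3 CPM of Eif4h against 102 CPM in replicate 2. With a term for these 4 libraries, Eif4h in reduced KSOM was at −1.39 against E4.5 (adjusted p = 0.54) and −0.30 against depleted KSOM (adjusted p = 1), and Eif2s3x was at −0.73 against E4.5 (adjusted p = 0.75). That term rests on the difference between the 2 OVX libraries alone. Whether admixed tissue has a part in these falls was not tested. The Eif4h call in reduced KSOM was also lost without reduced KSOM replicate 1 (adjusted p = 0.06) or replicate 2 (adjusted p = 0.052), that in targeted OVX without any 1 of its 4 libraries (adjusted p from 0.067 to 0.25), and that against depleted KSOM without any 1 of 5 (adjusted p from 0.093 to 0.26).

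Eif4a1 (ENSMUSG00000059796, chromosome 11, 69666936 to 69672317), the main gene for the helicase eIF4A, split the 2 media. It had 209 and 183 CPM in E4.5, 104 and 196 in OVX, 291 and 252 in starvation, 267 and 285 in depleted KSOM, 110.3, 84.1 and 128 in reduced KSOM and 133 and 90.4 CPM in targeted OVX. Starvation and depleted KSOM lay above E4.5, while reduced KSOM and targeted OVX lay below it. Eif4a1 was 2.57-fold lower in reduced than in depleted KSOM (−1.36 ± 0.32, adjusted p = 0.031) and was called in no other comparison. With the term for libraries with muscle transcripts the difference was −0.45 (adjusted p = 0.90), with offsets for length and GC −1.08 (adjusted p = 0.056), and without any 1 of the 5 libraries adjusted p was 0.078 to 0.15.

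Eif4a2, its paralog, had 63.0 and 66.4 CPM in E4.5 and 132.5 and 136 CPM in depleted KSOM (1.05 ± 0.44, adjusted p = 0.20), with 43.2 and 149.9 CPM in the 2 starvation libraries. Eif4b, the partner of eIF4A related in role to eIF4H, was below E4.5 (111 and 122 CPM) in all 11 libraries (64.8 to 98.0 CPM), and its change in depleted KSOM was −0.72 ± 0.29 (adjusted p = 0.18). No cap-binding protein gene was called. Eif4e had 36.0 and 97.8 CPM in E4.5, 125 and 169 CPM in OVX, which lay above E4.5 (1.14, adjusted p = 0.42), and 62.5 to 276 CPM in the other groups, which overlapped with it. The related Eif4e2 had 224 and 171 CPM in E4.5, 182 and 156 in depleted KSOM, 272.5, 245 and 239.7 in reduced KSOM and 377 and 298.5 CPM in targeted OVX, the highest of all libraries (0.77, adjusted p = 0.20). Eif4g2, a scaffold that does not bind eIF4E, had 307 and 299 CPM in depleted KSOM against 107, 135 and 181 CPM in reduced KSOM (−1.10 ± 0.37, adjusted p = 0.10), and Eif4g3 stayed between 11.3 and 23.2 CPM.

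**Figure D5:**
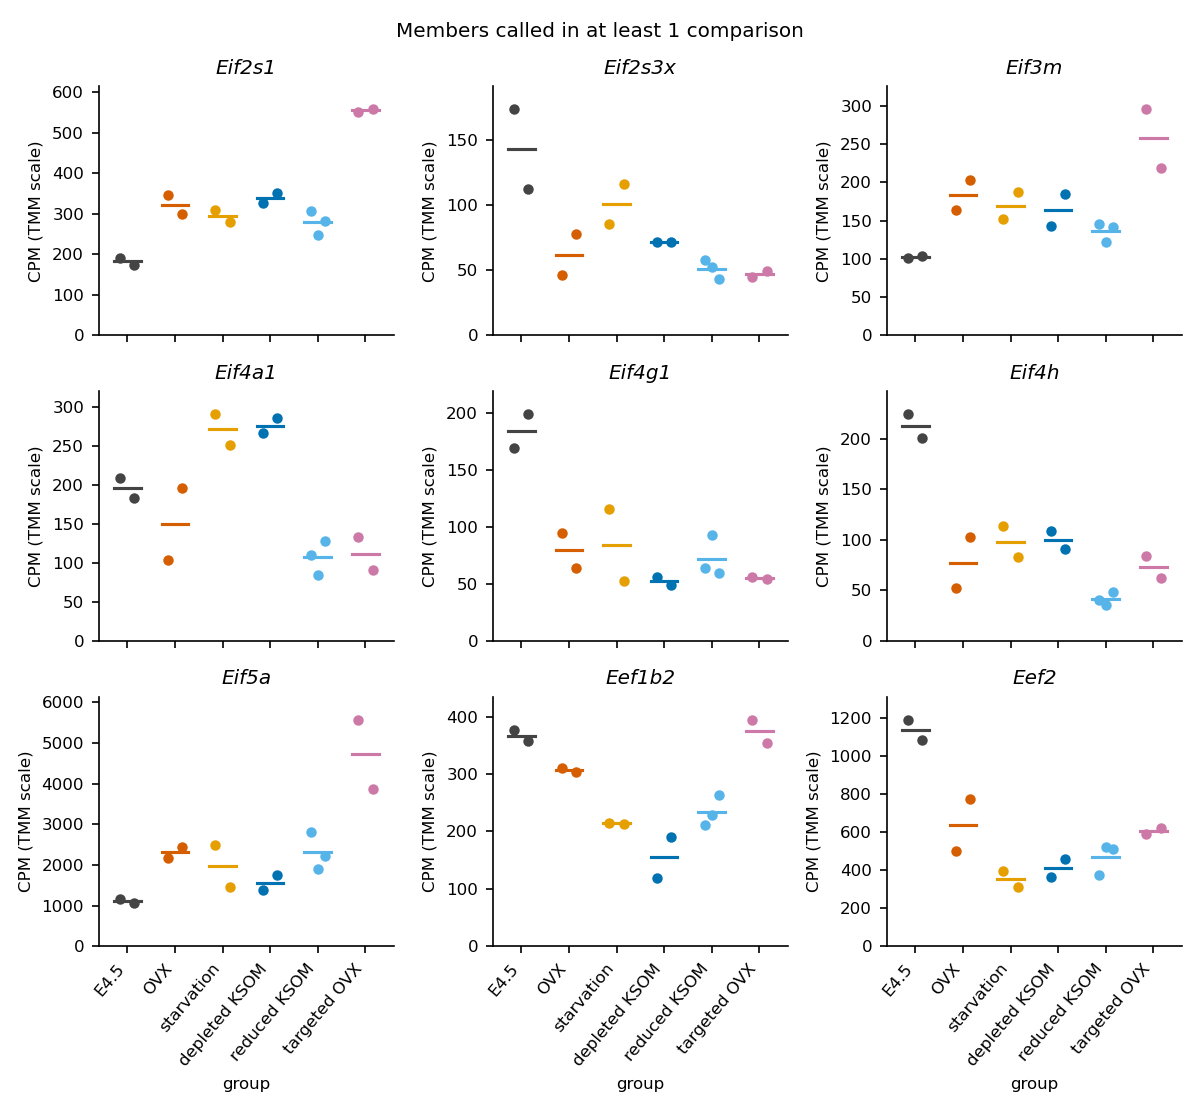
CPM on the trimmed-mean scale of the 9 members called in at least 1 comparison, in 1 panel per gene, with a point per library and a bar at the group mean. Eif4g1, Eif4h and Eef2 are highest in the 2 E4.5 libraries, and Eif2s1, Eif3m and Eif5a are highest in the 2 targeted OVX libraries.

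Eif5a (ENSMUSG00000078812, chromosome 11, 69916714 to 69921958), which encodes the elongation factor that carries hypusine, had the largest rise among called members. It had 1154 and 1055 CPM in E4.5, 2175 and 2449 in OVX, 2494 and 1463 in starvation, 1393 and 1747 in depleted KSOM, 2803, 1914 and 2229 in reduced KSOM and 5577 and 3860 CPM in targeted OVX. Every day 5.5 library was above both E4.5 libraries, and both targeted OVX libraries were above all others. The rise in targeted OVX over E4.5 was 4.27-fold (2.10 ± 0.38, adjusted p = 0.014). Against OVX, which was at 1.07 ± 0.37 over E4.5 (adjusted p = 0.17), targeted OVX was at 1.03 ± 0.36 (adjusted p = 0.33). On library totals the change in targeted OVX against E4.5 was 1.33 (adjusted p = 0.055). The call was also lost without E4.5 replicate 1 or replicate 2 and in a fit of the 2 groups alone. The authors' FPKM, scaled differently, gave 579 and 562 in E4.5 and 1622 and 1288 in targeted OVX, which also do not overlap. Its paralog Eif5a2 had 0 counts in the E4.5 and OVX libraries and at most 1.95 CPM in any library.

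Eif6, which keeps the large ribosomal subunit from joining early, had 158 and 139.6 CPM in E4.5 and 326 and 412 CPM in targeted OVX, the highest of all libraries (1.31 ± 0.38, adjusted p = 0.086). In the other groups it ran from 90.1 CPM in starvation replicate 2 to 247 CPM in OVX replicate 2, on both sides of E4.5.

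In the eEF1 group 1 member was called, Eef1b2. Eef1a1, for eEF1A, had 2628 and 2598 CPM in E4.5, 2765 and 2442 in OVX, 1556 and 2092 in starvation, 1503 and 2099 in depleted KSOM, 2138, 2588 and 2815 in reduced KSOM and 4076 and 3514 CPM in targeted OVX. The targeted OVX libraries were above and those of starvation and depleted KSOM below E4.5, but no difference was called (0.54 ± 0.32, adjusted p = 0.39 in targeted OVX and −0.54 ± 0.32, adjusted p = 0.35 in depleted KSOM). On library totals all 11 day 5.5 libraries were below E4.5 for Eef1a1.

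Eef1b2 (ENSMUSG00000025967, chromosome 1, 63176825 to 63180486), which encodes an exchange subunit that recharges eEF1A with GTP, fell in depleted KSOM. Its levels were 376 and 358 CPM in E4.5, 311 and 304 in OVX, 215 and 213 in starvation, 118 and 191 in depleted KSOM, 211, 228 and 263 in reduced KSOM and 395 and 354 CPM in targeted OVX. Depleted KSOM was the lowest group, and targeted OVX alone overlapped with E4.5. The fall in depleted KSOM was 2.37-fold (−1.25 ± 0.30, adjusted p = 0.031), and it was lost without any 1 of the 4 libraries (adjusted p from 0.066 to 0.34) and with replicate number as a block (adjusted p = 0.053).

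Eef1d, the other exchange subunit, was also lowest in depleted KSOM: 200.4 and 166 CPM in E4.5, 72.6 and 74.9 in depleted KSOM and 381 and 410.1 CPM in targeted OVX. It missed the threshold at −1.31 ± 0.36 in depleted KSOM (adjusted p = 0.055), 1.11 ± 0.36 in targeted OVX (adjusted p = 0.12) and 1.17 ± 0.34 between reduced and depleted KSOM (adjusted p = 0.061). Eef1g was between 373 and 764 CPM over all libraries, and Eef1e1, a member of the tRNA synthetase complex in spite of its name, had 136 and 102 CPM in E4.5 and 329 and 352 CPM in targeted OVX (1.52 ± 0.39, adjusted p = 0.060).

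Eef1a2, the form of eEF1A that replaces Eef1a1 in adult muscle and neurons, was bound to a few libraries. It had 9.25, 11.0 and 7.54 CPM in the reduced KSOM libraries, 12.9 CPM in the first OVX library, 0.241 CPM in starvation replicate 2 and 0 counts in the other 8. The 4 libraries at 7.54 CPM or more are those with the high muscle and neutrophil marker sums. Hjv, Abcc9, Prr33 and Pkia were among the genes most like it over the 13 libraries, with Pearson r of log2 CPM from 0.993 to 0.998 (n = 13, points that share a library). It was not called in reduced KSOM against E4.5 (adjusted p = 0.15), and the part of muscle RNA in its level was not tested.

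Eef2 (ENSMUSG00000034994, chromosome 10, 81176631 to 81182498), the only gene for the translocating factor eEF2, was lower in all 11 day 5.5 libraries. It had 1193 and 1084 CPM in E4.5, 503 and 776 in OVX, 398 and 311.5 in starvation, 363 and 459 in depleted KSOM, 377, 521 and 511 in reduced KSOM and 590.2 and 624 CPM in targeted OVX. The groups did not overlap with E4.5, and the starvation libraries included the lowest of all. Eef2 fell 3.21-fold in starvation (−1.68 ± 0.33, adjusted p = 0.022) and 2.77-fold in depleted KSOM (−1.47 ± 0.33, adjusted p = 0.022). It was near the threshold in reduced KSOM (−1.28 ± 0.29, adjusted p = 0.056) and not called in OVX (−0.83 ± 0.32, adjusted p = 0.23) or targeted OVX (−0.91 ± 0.32, adjusted p = 0.16). The call in depleted KSOM was kept under the other scalings, filters and tools tried and lost only where 1 of the 4 libraries was left out (adjusted p from 0.072 to 0.21), and that in starvation was lost without either E4.5 library or without starvation replicate 2 (adjusted p from 0.077 to 0.14) and in a fit of the 2 groups alone (adjusted p = 0.23). The inner cell mass and epiblast marker sum was also highest in E4.5, and its part in the Eef2 levels was not tested.

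The genes for enzymes that act on eEF2 differed in level. Eef2k, the kinase that blocks eEF2, had 0.817 to 7.56 CPM over the libraries. Eef2kmt, a methyltransferase of eEF2, had 23.8 and 27.3 CPM in E4.5, 15.3 and 34.4 in OVX and 11.7 and 4.99 CPM in targeted OVX, the 2 lowest of the 13, with a difference of −1.58 ± 0.52 between targeted OVX and OVX. That was the smallest adjusted p of any member in this comparison, at 0.29.

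Many elongation factor mRNAs and some initiation factor mRNAs are known as TOP mRNAs, which begin with a C followed by a run of pyrimidines and whose translation depends on mTORC1 through LARP1. The 11 members taken as TOP mRNAs from general knowledge were Eef1a1, Eef1b2, Eef1d, Eef1g, Eef2, Eif3a, Eif3e, Eif3f, Eif3h, Eif4b and Eif2s3x. Of these, 0 (OVX), 1 (Eef2, starvation), 2 (Eef2 and Eef1b2, depleted KSOM), 1 (Eif2s3x, reduced KSOM) and 1 (Eif2s3x, targeted OVX) were called, all lower than in E4.5. Of all tested genes, 0.481%, 0.532%, 2.21%, 0.362% and 0.986% were called lower in this order. Among abundant genes, 7.99%, 7.69%, 18.1%, 4.64% and 10.1% were called in either direction. The share of abundant genes called lower alone was not counted. The counts of 0 to 2 in 11 genes, all lower, therefore have no share matched for abundance and direction beside them. The median log2 fold changes of the 11 were −0.21, −0.56, −0.70, −0.45 and −0.07 in the same order, beside 0, 0, −0.09, 0.15 and −0.16 for all genes. Log2 fold changes were negative for 8, 10, 10, 10 and 6 of the 11. On library totals the medians were −0.8, −0.82, −1.02, −1.13 and −0.84, lower than those of all genes (−0.53, −0.17, −0.41, −0.5 and −0.92) except in targeted OVX. In targeted OVX against OVX 7 of the 11 were positive, with a median of 0.15 beside −0.09 for all genes, and 5 of 11 on library totals, with a median of 0.

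The windows around the annotated starts of Eef1a1 and of the members called lower, other than Eif2s3x shown earlier, are given next. The run is taken anywhere in the window, so it can lie across the annotated start, as in Eef1a1, or after it, as in Eef2. The windows are as above, with the longest run of C and T in capitals.
Eef1a1 (chr9:78481700-78481729, minus strand): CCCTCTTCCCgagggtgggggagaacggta
Eef2 (chr10:81176626-81176655, plus strand): cgggcgttgacgtcagcggTCTCTTCCgcc
Eef1b2 (chr1:63176826-63176855, plus strand): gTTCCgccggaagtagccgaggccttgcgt
Eif4h (chr5:134639385-134639414, minus strand): cgatcaggcagcgcggcggacagCCCCggt
Eif4g1 (chr16:20672722-20672751, plus strand): gctccgCCCTCTgcgccggtcacgtggggc
Eif4a1 (chr11:69672399-69672428, minus strand): gTCacgtcgagttgcagagcgccggcaggc
Eef1a1 and Eef2 hold runs of 10 and 8 pyrimidines in this window, and Eif2s3x and Eif2s3y, shown earlier, runs of 16 and 12, while the runs of Eef1b2, Eif4h, Eif4g1 and Eif4a1 are 4, 4, 6 and 2 bases. A run of at least 8 was present in 11 of 47 members with a RefSeq entry (23.4%), taking the longest over a gene's start sites, and in 10.3% of 32851 start windows of all genes, each counted alone. A match is a description of these letters, and the RefSeq start may not be the start used in blastocysts.

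Regulators outside the factor genes came from a list of kinases, binding proteins and modifiers, of which 30 were tested. Of these, starvation called 2, depleted KSOM 6, reduced KSOM 1, targeted OVX 2 and OVX 0 against E4.5, targeted OVX against OVX 1 and the comparison of the media 2, with medians of 0.22, 0.22, 0.26 and −0.08 in the first 4, beside 0, −0.09, 0.15 and −0.16 for all genes. On library totals these medians were −0.01, −0.1, −0.43 and −0.83, beside −0.17, −0.41, −0.5 and −0.92 for all genes. The first 3 change sign with the scale, but all 4 lay above the median of all genes on both scales. Of all tested genes, 2.21%, 5.51%, 1.13% and 2.66% were called in those 4 comparisons, 2.04% in OVX against E4.5, 0.0367% in targeted OVX against OVX and 5.79% between the media. In starvation, Eif2ak3, which encodes the eIF2α kinase PERK, rose 17.8-fold (4.16 ± 0.68, adjusted p = 0.012), from 3.52 and 7.36 CPM in E4.5 to 29.7 and 164 CPM. Larp1, the repressor of TOP mRNAs, fell 2.91-fold (−1.54 ± 0.31, adjusted p = 0.026). In depleted KSOM 5 regulators were called higher and 1 lower. Eif2ak3 reached 292 and 240.0 CPM, a 48.8-fold rise (5.61 ± 0.73, adjusted p = 0.0022). Impact, an inhibitor of the eIF2α kinase GCN2, rose 9.55-fold (adjusted p = 0.0043), Paip1, a partner of the poly(A)-binding protein, 6.94-fold (adjusted p = 0.008), Pdcd4, an inhibitor of eIF4A, 6.71-fold (adjusted p = 0.017) and Ppp1r15a, which brings a phosphatase to eIF2α, 4.45-fold (adjusted p = 0.038), while Abcf1 fell 2.88-fold (adjusted p = 0.039). The calls of Eif2ak3 and Impact in depleted KSOM were kept in all 15 alternatives run. Leaving out 1 library ended the others: Eif2ak3 in starvation without E4.5 replicate 1 (adjusted p = 0.065), Paip1 without E4.5 replicate 1 (0.058), Pdcd4 without either E4.5 library or depleted KSOM replicate 1 (0.058 to 0.066), Ppp1r15a without the same 3 (0.13 to 0.24), and Larp1 (0.055 to 0.19) and Abcf1 (0.12 to 0.24) without any 1 of 4. Ppp1r15a (adjusted p = 0.14) and Larp1 (adjusted p = 0.054) also missed the threshold on library totals.

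Between the 2 media, Eif2ak3 was 13.6-fold and Paip1 6.42-fold lower in reduced than in depleted KSOM (adjusted p = 0.0072 and 0.0091). Neither kept its call with the term for the libraries with muscle transcripts (adjusted p = 0.51 and 0.67). Reduced KSOM against E4.5 called Pdcd4 higher (6.1-fold, adjusted p = 0.044) among the regulators, a call lost with the muscle term (0.76, adjusted p = 0.84) and without any 1 of 5 libraries (adjusted p from 0.11 to 0.21). In targeted OVX, Eif4ebp1, the eIF4E-binding repressor that mTORC1 switches off, had 2527 and 3227 CPM, against 339 and 307 CPM in E4.5 and 551 and 481 CPM in OVX. The targeted OVX libraries stood far above all others, whose highest was 654 CPM. Eif4ebp1 was 8.91-fold higher than in E4.5 (3.15 ± 0.38, adjusted p = 0.003) and 5.58-fold higher than in OVX (2.48 ± 0.37, adjusted p = 0.042). The first call was lost in a fit of the 2 groups alone (adjusted p = 0.089). The second was lost under median-of-ratios scaling (adjusted p = 0.056) and in a fit of the 2 groups alone (adjusted p = 0.59). It was also lost with replicate number as a block, with the term for the libraries with muscle transcripts and without targeted OVX replicate 2. Denr, part of a tRNA-delivering dimer, had 603 and 628 CPM against 153 and 138 CPM in E4.5 (4.23-fold, adjusted p = 0.0057). This call was lost without the second E4.5 library and in a fit of the 2 groups alone.

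Targeted OVX against OVX, the comparison that holds age and ovariectomy constant, had 38 members with a positive and 19 with a negative log2 fold change and no call. The highest were Eif5a (1.03), the eIF3 core subunit gene Eif3b (0.96, adjusted p = 0.46), Eef1d (0.87, adjusted p = 0.42) and Eif2s1 (0.79), and the lowest Eef2kmt (−1.58), Eif4g1 (−0.53, adjusted p = 0.60), Eif4a1 (−0.43) and Eif2s3x (−0.39). Eif3b had 103 and 97.6 CPM in OVX and 176 and 215 CPM in targeted OVX, with 147 and 146 CPM in E4.5 between them. The members' median was 0.19, beside −0.09 for all genes, and 0.06 beside −0.26 on library totals. No group with control guides is among the labels, so the handling of the embryos and the targeting cannot be told apart. OVX replicate 1 also carried the high muscle and neutrophil marker sums.

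Termination and recycling factors were 6, of which Hbs1l, for ribosome rescue, was called higher in starvation (3.01-fold, adjusted p = 0.029) and depleted KSOM (3.54-fold, adjusted p = 0.0096) and lower in reduced than in depleted KSOM (2.70-fold, adjusted p = 0.021), and Gspt1, the release factor eRF3, lower in reduced KSOM (3.0-fold, adjusted p = 0.044). Each of these calls was lost without 1 library, Hbs1l without either E4.5 library or the first depleted or second starvation library (adjusted p from 0.087 to 0.26) and, between the media, without any 1 of 5 (0.061 to 0.2), and Gspt1 without any 1 of 5 (0.085 to 0.24). The Hbs1l call in starvation was also lost on library totals, on log2(FPKM + 1), in a fit of the 2 groups alone, with the replicate block and with length and GC offsets. In depleted KSOM it was also lost on library totals. The Hbs1l call between the media and the Gspt1 call were lost with the replicate block and with the term for libraries with muscle transcripts. The other 4 were called in no comparison. Of 10 factors for translation in mitochondria, 0 were called by edgeR in any of the 7 comparisons, where 0.0367% to 5.79% of all tested genes were. Their medians against E4.5 were 0.55 (OVX), 0.02 (starvation), 0.83 (depleted KSOM), 0.20 (reduced KSOM) and 0.12 (targeted OVX), beside 0, 0, −0.09, 0.15 and −0.16 for all genes. On library totals the medians of the 10 were −0.06, −0.21, 0.51, −0.49 and −0.64, beside −0.53, −0.17, −0.41, −0.5 and −0.92 for all genes. The sign held on both scales in depleted KSOM alone. The medians of the 10 lay above those of all genes on both scales in OVX, depleted KSOM and targeted OVX. In starvation and reduced KSOM they were near those of all genes on library totals.

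Some members were at the edge of detection. Eif4e1b, the form of eIF4E of oocytes, had 0.691 CPM in E4.5 replicate 1 and 0 counts in the other 12 libraries, and Eif2c5 had 0.226 CPM in targeted OVX replicate 2 and 0 elsewhere; neither was tested. Eif4e3 had 0.254 to 5.51 CPM, with its highest level in depleted KSOM replicate 1. The Eif4a3 copies Eif4a3l1 and Eif4a3l2 were at most 0.385 and 1.13 CPM, both in E4.5 replicate 1, and Eef1aknmt, a methyltransferase of eEF1A, ran from 0.654 to 14.1 CPM.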

How the data were processed

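Whole blastocysts were sequenced after full-length cDNA amplification (SMART-Seq v4, per the labels' protocols), which marks neither molecules nor strand. The authors deposited expected counts, which are whole numbers here, and FPKM per gene. Per the submitters' processing notes, cutadapt 1.9, HISAT2 2.0.4, StringTie 1.3.4d and GRCm38 were used; the annotation is not given in the sources used here.

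Counts were tested with edgeR 4.0.16 (R 4.3.3) quasi-likelihood fits of all 13 libraries with 1 mean for each group (7 residual degrees of freedom), after filterByExpr and TMM scaling (factors 0.671 to 1.414), with Benjamini-Hochberg adjustment over 21808 genes. The common biological coefficient of variation was 0.9. CPM use TMM-scaled library sizes, except marker sums, which use totals. Log2 CPM carry a prior count of 2. Scripts were tested on simulated data. Figures used Python 3.11.15 and matplotlib 3.10.9.

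Members and lists were chosen with earlier results of these data known. Named are all called members and list genes, the 4 highest and 4 lowest members per comparison at a mean log2 CPM of at least 3, and a fixed set of members; for Eef1a2 and Eif2s3y also the 5 tested genes most like them, of which 1 is not reported here. Eif4e1b, not tested, has none. Naming the genes like Eif2s3y was added after its values were seen.

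Alternatives were other scalings (median of ratios, library totals), DESeq2 1.42.0, limma 3.58.1 on the deposited FPKM as log2(FPKM + 1), a fit of 2 groups, no filter, a mean CPM of 5 or more, a replicate block, a term for 4 libraries with muscle transcripts, leaving out each library and, chosen after seeing the data, length and GC offsets and a crossed block. Start sequences come from RefSeq (GRCm38.p6), with 47 members matched; annotated positions and lengths come from GENCODE.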

Additional observations from a re-analysis of the deposited data

How the results depend on the processing

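Counts of called members are given in the order OVX, starvation, depleted KSOM, reduced KSOM and targeted OVX against E4.5, targeted OVX against OVX, and reduced against depleted KSOM; as reported they were 0, 1, 3, 2, 6, 0 and 2. Median-of-ratios scaling gave the same 7 counts. Library totals gave 1, 1, 5, 7, 6, 0 and 2, DESeq2 10, 9, 13, 9, 17, 3 and 9, and limma on log2(FPKM + 1) 7, 6, 8, 18, 13, 0 and 3. Testing without a filter gave 2, 4, 7, 5, 11, 1 and 9, and a mean CPM of 5 or more 3, 3, 7, 4, 11, 0 and 6. Fits of the 2 groups alone gave 0, 0, 11, 15, 0, 0 and 12, the term for libraries with muscle transcripts 0, 1, 7, 0, 8, 0 and 0, and length and GC offsets 3, 3, 8, 3, 4, 0 and 4. The cause of these differences was not tested. Leaving out each library in turn gave 0 to 2 (2 without OVX replicate 2), 0 to 3 (3 without starvation replicate 1), 0, 0 to 1, 0 to 3 (3 without targeted OVX replicate 1), 0 and 0, each with fewer samples than the reported fit; a group left with 1 library is assumed to vary like the others. With replicate number as a block the counts were 0, 1, 2, 1, 2, 0 and 0. The numbers share no stated source, and the deviations of same-numbered libraries correlated at −0.189 to 0.243 over 30 pairs, so they were not taken as pairs; for E4.5 and depleted KSOM, a block with crossed numbers called 3. No call changed direction in any alternative. The settings named for a gene in the Results are not always all those that ended its call. Fits of 2 groups ended every member call in starvation and targeted OVX against E4.5. The replicate block ended those of Eif2s3x, Eif3m, Eif4g1 and Eif4h in targeted OVX against E4.5. It also ended those of Eif2s3x in reduced KSOM, Eef1b2 in depleted KSOM, and Eif4a1 and Eif4h between the media. With at least 40678386 counts in each library, depth limits the precision of the scarcest members most.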
